A study of Mus musculus with 4 samples.

Results

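Microglia, the resident macrophages of the brain, were followed in the mouse hippocampus through 9 genes that they use at rest to sense their surroundings. The genes were P2ry12, P2ry13, Cx3cr1, Csf1r, Tmem119, Siglech, Inpp5d, Gpr34 and Selplg. They were taken as a named list, and all 9 were found among the 32285 gene identifiers of the count tables. The study crossed genotype with voluntary running in female mice, aged 8 weeks when a period of 10 weeks began, with C57BL/6J as the wild type. Its 4 groups were App NL-G-F knock-in with exercise, App NL-G-F knock-in without exercise, wild type (WT) with exercise and WT without exercise. The knock-in changes the mouse's own App gene, with a humanised amyloid-beta stretch and familial mutations, so no transgene promoter is involved, and plaques form with age. Each group was 1 library of single-nucleus RNA sequencing (snRNA-seq), and the labels do not give the number of mice behind a library. The treatment text names a running wheel for every sample, while titles and the treatment label call 2 groups unexercised; the titles were followed here.

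The genes encode proteins of the cell surface or its inner face, although the working name of the list also speaks of lysosomes. P2RY12 and P2RY13 are receptors for ADP, the purine that leaks from damaged cells, and P2RY12 steers microglial processes towards injury. CX3CR1 binds fractalkine, which neurons display through the gene Cx3cl1, and CSF1R is the receptor kinase for the survival factors made from Csf1 and Il34. GPR34 is a receptor for lysophosphatidylserine, and Siglec-H is a sialic acid-binding lectin that signals through the adaptor made from Tyrobp. SELPLG carries sugars that selectins bind, and TMEM119 is a membrane protein used as a marker of microglia. INPP5D, also called SHIP1, is a lipid phosphatase that dampens signals from such receptors, and variants near its human gene are linked to Alzheimer's disease risk. Microglia around amyloid plaques are known to lower many of these genes while they switch on a plaque-response set.

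Coordinates are those of GENCODE release M21 on GRCm38. P2ry12 (chromosome 3, 59216272 to 59262871, minus strand) and P2ry13 (59207892 to 59210882, minus strand) are neighbours with 5389 bases between them, and both lie inside Med12l, a gene of the opposite strand (59005825 to 59318682). An exon of P2ry12 overlaps an exon of Med12l. Gpr34 (chromosome X, 13632089 to 13640858, plus strand) likewise lies inside Cask, which runs on the opposite strand. The sources used here do not say whether reads were assigned by strand, so reads of these 3 members and of the genes around them may not be fully separated. The same holds for Csf1r, which shares exon sequence with Hmgxb3 on the opposite strand, and for Cx3cr1, whose annotated span of 168264 bases takes in several other genes. Inpp5d lies on chromosome 1 (87620312 to 87720507), Siglech on chromosome 7 (55768178 to 55778925), and Tmem119 (113793729 to 113800516) and Selplg (113818536 to 113832644) lie close together on chromosome 5.

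Since the members are high in the same nuclei, the DNA before their starts was read for GAGGAA, the core letters bound by PU.1, a transcription factor that defines macrophages. RefSeq windows on GRCm38.p6 were at hand for 5 of the 9 members, and the 250 bases before each RefSeq start were searched on both strands (GAGGAA or TTCCTC). These starts can differ from those of GENCODE. The P2ry12 window begins at 59262986, beyond the GENCODE start at 59262871. The Cx3cr1 window (120068297 to 120068546) lies inside the GENCODE span, which ends at 120069879. A match was present in 2 of the 5 windows, those of P2ry13 and Inpp5d, and in 23.3% of all 32851 windows of the same length. The match began 48 bases before the start of P2ry13 and 20 bases before that of Inpp5d. Both windows are shown with the match in capitals, and that of Siglech, in which these letters do not occur, is shown for comparison, each read 5′ to 3′ on the gene's own strand.
P2ry13, chr3:59210883-59211132, minus strand: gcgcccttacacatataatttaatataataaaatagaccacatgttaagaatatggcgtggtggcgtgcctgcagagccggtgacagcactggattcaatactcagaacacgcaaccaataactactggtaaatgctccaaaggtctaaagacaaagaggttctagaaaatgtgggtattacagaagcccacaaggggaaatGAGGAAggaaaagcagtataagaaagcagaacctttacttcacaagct
Inpp5d, chr1:87620062-87620311, plus strand: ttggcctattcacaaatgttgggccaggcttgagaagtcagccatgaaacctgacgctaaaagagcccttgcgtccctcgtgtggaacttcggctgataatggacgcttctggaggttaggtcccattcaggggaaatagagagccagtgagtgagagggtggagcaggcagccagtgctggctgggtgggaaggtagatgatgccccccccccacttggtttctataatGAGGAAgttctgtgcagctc
Siglech, chr7:55767934-55768183, plus strand: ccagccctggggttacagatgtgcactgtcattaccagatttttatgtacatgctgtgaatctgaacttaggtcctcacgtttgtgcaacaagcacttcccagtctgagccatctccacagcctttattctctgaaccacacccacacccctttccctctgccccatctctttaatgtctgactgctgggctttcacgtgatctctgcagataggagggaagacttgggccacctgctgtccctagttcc

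The deposited matrices held 76111556, 64158446, 66573909 and 91676884 unique molecular identifiers (UMIs, each one captured RNA molecule) for knock-in with exercise, knock-in without exercise, WT with exercise and WT without exercise, and 34744 nuclei were kept after filters and removal of scored doublets. Pairs of libraries shared 20 to 42 barcodes, at most 0.486% of the smaller library. Nuclei were clustered without the 9 members, and 1 cluster of 823 nuclei showed all 18 microglia markers, none of which is a member. Part of that cluster carried neuronal RNA at the level of whole neurons, and 268 such nuclei with high UMI counts (54, 66, 80 and 68 in the order above) were set aside as mixed. This left 276, 130, 27 and 122 microglia with median UMI counts of 2587, 1271, 1535 and 1642. The cut was made after the neuronal RNA was seen, and values with the mixed nuclei kept are given where they differ in direction.

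Several properties of the microglia differ between libraries. A list of 16 neuronal genes had a median level in microglia of 0.506, 0.121, 0.149 and 0.239 times that in granule neurons of the same library, highest in knock-in with exercise. Summed over microglia, as all levels below are, that list stood at 33220, 17098, 31565 and 19058 CPM. On that measure WT with exercise was near knock-in with exercise. Inhibitory neuron markers summed to 1018, 1327, 3898 and 612 CPM. The lowest UMI count of any deposited barcode was 1199 in knock-in with exercise, against 500 to 504 in the others. In WT with exercise, the 3 largest nuclei held 44.7% of all microglial UMIs, against 3.64% to 9.92% elsewhere. Oligodendrocyte markers, all 12 detected in the other 3 libraries and 10 in WT with exercise, summed to 1080, 1995, 583 and 999.7 counts per 1000000 UMIs of the class (CPM). Border macrophage markers summed to 128, 127, 159 and 237 CPM, with F13a1, Lyve1, Pf4 and Cbr2 at 0 in all 4 libraries. The part of any of these in the results was not tested. Levels are given on 2 scales, per 1000000 UMIs of the class and per 100 UMIs of the 18 microglia markers in the same nuclei. For microglia nuclei the marker scale is a ratio within microglial RNA. Over all kept nuclei it also counts marker UMIs found outside microglia.

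Across cell types, the 9 genes marked microglia. Their summed level was 3986, 4095, 4534 and 6094 CPM in microglia, in the order knock-in with exercise, knock-in without exercise, WT with exercise and WT without exercise. In dentate granule neurons it was 16.9, 43.9, 22.2 and 25.2 CPM, and in oligodendrocytes 31.6, 36.8, 15.9 and 11.9 CPM. Microglia ranked first in every library among classes with at least 10 nuclei, and in the 2 knock-in libraries border macrophages followed with 1703 CPM from 15 nuclei and 1337 CPM from 11. Pooled over libraries, the distance from microglia to granule neurons was widest for Inpp5d, with a log2 ratio of 10.35 (10.02 to 10.70), and for Selplg at 9.55 (9.12 to 10.01). It was narrowest for P2ry12 at 4.87 (4.729 to 5.002). Ranges in parentheses are 95% intervals for counting error only, and none covers the spread between animals or library preparations.

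**Figure D1:**
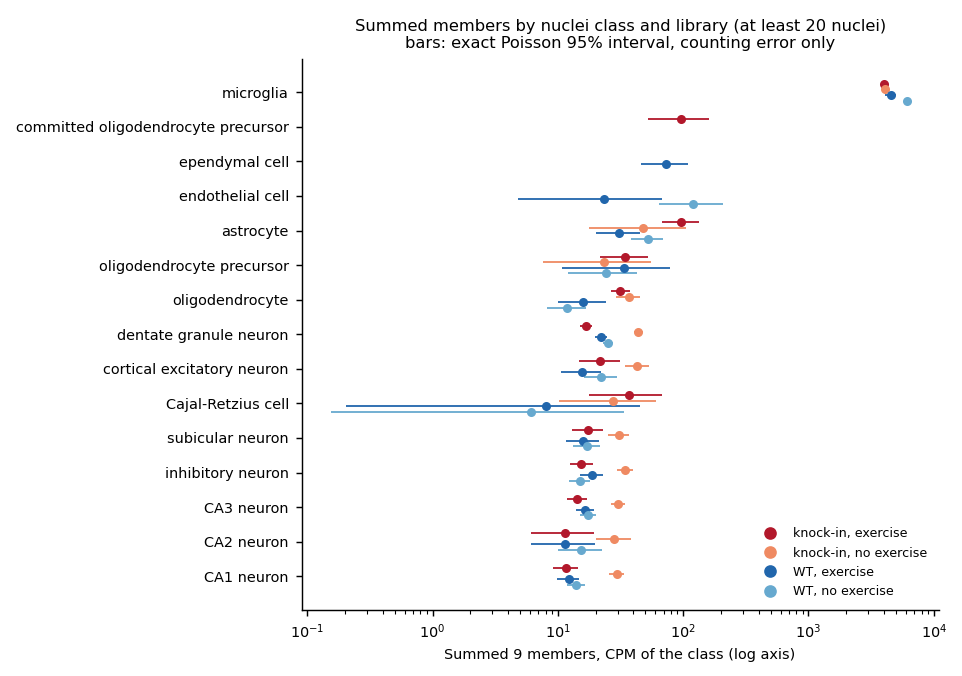
Summed level of the 9 genes in each class of nuclei with at least 20 nuclei in a library, as CPM of the class on a log axis, with 1 point per library and exact Poisson 95% intervals. Microglia stand between 3986 and 6094 CPM in all 4 libraries, and all neuronal classes of knock-in without exercise stand at or above those of the other libraries except Cajal-Retzius cells.

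The RNA of the members was not all in microglia. Of their 13966 UMIs in kept nuclei, 5959 (42.7%) lay in microglia and a further 2067 in the mixed nuclei. Inpp5d had 65.5% of its UMIs in microglia, Siglech 60.9%, Selplg 58.0%, Csf1r 52.3%, Gpr34 42.0%, Cx3cr1 40.1% and Tmem119 39.7%. P2ry13 was scarce, with 21 of 73 UMIs (28.8%) in microglia. P2ry12 had 15.7%, or 705 of 4497 UMIs, and granule neurons alone held 1156. These pooled shares cover libraries that differ widely. By library, P2ry12 had 45.9%, 9.91%, 5.18% and 13.7% of its UMIs in microglia, and Inpp5d had 75.4%, 57.6%, 31.9% and 59.7%. In knock-in with exercise the share of P2ry12 was level with that of Tmem119 (45.9%), and in the other 3 libraries it was the lowest of the 9.

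P2ry12 in neurons differed between libraries. Over all neuronal classes it stood at 5.34 CPM (4.69 to 6.05) in knock-in with exercise, 26.7 (25.1 to 28.4) in knock-in without exercise, 13.7 (12.6 to 14.8) in WT with exercise and 13.996 (13.03 to 15.02) in WT without exercise. The other 8 members together reached 10.3, 8.97, 3.88 and 5.21 CPM there, so their sum did not share that order. Relative to Med12l, the gene around it, P2ry12 gave 2.14, 12.3, 5.198 and 5.09 UMIs per 100 Med12l UMIs in neurons. Over neuron types with at least 50 Med12l UMIs this ratio spanned 1.78 to 3.85 over 8 classes in knock-in with exercise, 10.8 to 14.7 over 7 classes in knock-in without exercise, 3.92 to 5.86 in WT with exercise and 3.85 to 5.77 in WT without exercise. As point values, the range of knock-in without exercise thus overlapped none of the others. For CA2 neurons the intervals did overlap, at 7.02 to 15.9 in knock-in without exercise and 3.37 to 9.27 in WT without exercise. The value of 3.85 in knock-in with exercise came from Cajal-Retzius cells, with 2 P2ry12 UMIs. The share of all genes with ranges apart in this way was not counted. In microglia it was far higher, at 205 (169 to 249), 302 (219 to 422) and 317 (232 to 438) in the 3 libraries with at least 50 Med12l UMIs there. Oligodendrocytes gave 3.05 (1.69 to 5.08), 21.2 (12.6 to 34.2), 3.33 (0.675 to 10.1) and 3.01 (0.965 to 7.17), again highest in knock-in without exercise. Which gene the neuronal reads came from was not tested. P2ry13, which lies in the same host, gave at most 0.244 UMIs per 100 Med12l UMIs in any neuronal class, and Gpr34 at most 2.04 per 100 Cask UMIs. Pooled over these neuronal classes, Gpr34 gave 0.34, 0.74, 0.31 and 0.36 per 100 Cask UMIs, from 21, 44, 20 and 31 UMIs. Gpr34 was thus also highest in knock-in without exercise. P2ry13 had only 8, 7, 4 and 5 UMIs there.

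**Figure D2:**
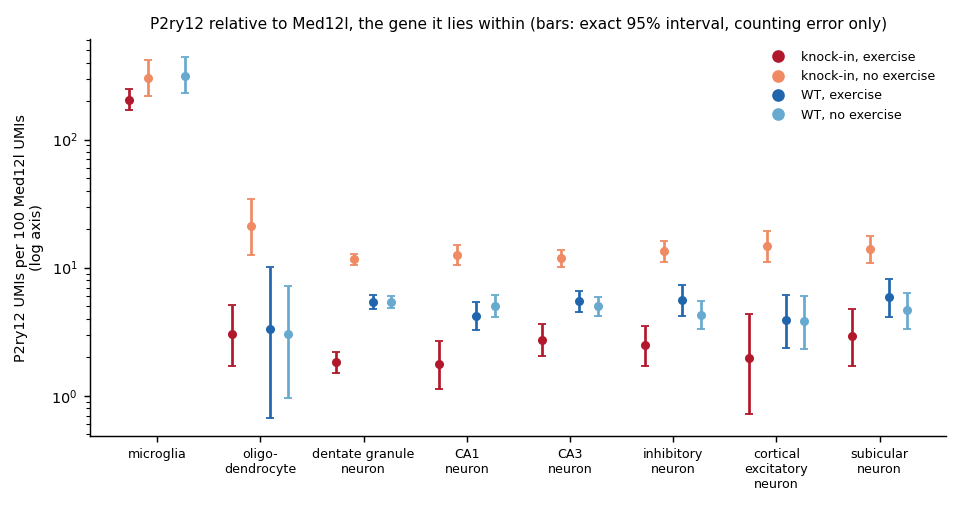
P2ry12 UMIs per 100 UMIs of Med12l, the gene it lies within, by class of nuclei and library on a log axis, with exact 95% intervals. The neuronal classes drawn for 1 library lie close together. Knock-in without exercise is highest at 11.6 to 14.7 and knock-in with exercise lowest at 1.78 to 2.94, and microglia lie above 200.

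The ligands of 2 of the receptors were measured by class in the same way. Cx3cl1, the fractalkine gene, stood at 44.1, 67.1, 43.1 and 52.3 CPM in granule neurons and at 57.4, 62.9, 50.4 and 58.7 CPM in CA1 neurons, and at 38.1, 34.9, 79.5 and 32.0 CPM in microglia, so it set no class apart by far. Il34 stood at 46.6, 23.2, 28.8 and 30.9 CPM in CA3 neurons and at 32.9, 23.7, 23.03 and 31.4 CPM in inhibitory neurons, against 5.27, 3.54, 2.19 and 2.85 CPM in granule neurons. Csf1 was found in oligodendrocytes at 72.9, 63.6, 51.4 and 60.0 CPM. In microglia Csf1 reached 108 CPM (87.3 to 133) in knock-in with exercise and 82.9 CPM (49.9 to 129.5) in knock-in without exercise, against 13.3 CPM (0.336 to 73.9) in WT with exercise, from 1 UMI, and 9.13 CPM (1.11 to 33.0) in WT without exercise, from 2 UMIs. Both knock-in libraries lay above both WT libraries, and the intervals of knock-in without exercise and WT with exercise overlapped.

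Other genes with the same distribution were sought over 52 profiles, each a class in 1 library with at least 20 nuclei, by Pearson correlation of log2(CPM + 1) with the mean of the members. The profiles share libraries and depth, so the coefficients are descriptions. The 10 closest of 15768 genes were Adgre1 (0.974), Csf3r, Cd33, Arhgap30, Pik3cg, Il10ra, Gm10790, Cd86, Cd37 and Havcr2 (0.956). Adgre1 encodes the macrophage antigen F4/80, Csf3r a cytokine receptor and Cd33 a sialic acid-binding lectin. Among the members, Siglech was closest to the mean of the other 8 (0.953), and P2ry12 was farthest from it (0.770).

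Single microglia nuclei held several members at once. After each nucleus was thinned to 1000 UMIs, a mean of 2.69, 3.22, 3.74 and 3.93 of the 9 genes were detected per microglia, against 0.020, 0.045, 0.022 and 0.030 per granule neuron. At least 2 members were found in 79.3%, 83.1%, 92.6% and 92.6% of the thinned microglia and in at most 0.039% of granule neurons. Inpp5d was the most widely detected, in 72.8%, 68.5%, 77.8% and 87.7% of microglia. P2ry12 was detected in 32.2%, 46.9%, 55.6% and 52.5%, against 0.74%, 3.54%, 1.78% and 2.39% of granule neurons. Gpr34 was found in 6.88% (4.20 to 10.5) of microglia in knock-in with exercise and in 33.1% (25.1 to 41.9) in knock-in without exercise, against 11.1% (2.35 to 29.2) and 14.8% (8.98 to 22.3) in the WT libraries with and without exercise. Unthinned, the Gpr34 shares were 18.8%, 43.1%, 22.2% and 27.05%, and those of P2ry12 were 56.9%, 60.0%, 74.1% and 68.9%.

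The level of each member in microglia of each library is given by role, in CPM with exact Poisson intervals. P2ry12 stood at 391 CPM (350 to 436) in knock-in with exercise, 685 (582 to 801) in knock-in without exercise, 650 (481 to 859) in WT with exercise and 781 (668 to 907) in WT without exercise. P2ry13 gave 6, 4, 1 and 10 UMIs, or 7.15, 17.5, 13.3 and 45.6 CPM, too few to rank. P2ry12 was thus low in 1 library, knock-in with exercise, with an interval clear of the other 3. Cx3cr1 stood at 414 (371 to 460), 511 (422 to 612), 689 (515 to 904) and 644 (542 to 759) CPM in the same order, with both knock-in libraries below both WT libraries. Csf1r stood at 502 (455 to 552), 437 (355 to 531), 305 (193 to 458) and 790 (676 to 917) CPM, and on this scale WT without exercise alone was clear of the rest. Per 100 marker UMIs Csf1r gave 6.55, 4.87, 4.89 and 8.00 UMIs, with less distance between the highest and the next. Gpr34 stood at 78.7 (60.8 to 100.1), 362 (289 to 449), 133 (63.6 to 244) and 205 (149.8 to 275) CPM. For this lipid receptor the 2 knock-in libraries lay at opposite ends, with both WT libraries between them.

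The surface lectin and the selectin ligand come next. Siglech stood at 496 (449 to 546), 467 (383 to 564), 676 (503 to 889) and 762 (651 to 887) CPM. Selplg stood at 441 (397 to 488), 498 (410 to 598), 650 (481 to 859) and 854 (736 to 985) CPM. In both genes the 2 knock-in libraries lay below the 2 WT libraries, and neighbouring intervals overlapped. Per marker UMI the knock-in libraries were again lower, and WT with exercise was then the highest for both genes. Tmem119, with 39, 21, 7 and 27 UMIs, stood at 46.5 (33.1 to 63.6), 91.7 (56.7 to 140.1), 92.8 (37.3 to 191) and 123 (81.2 to 179) CPM. Inpp5d, the phosphatase, stood at 1610.5 (1526 to 1699), 1026 (899 to 1166), 1326 (1079 to 1612) and 1889.8 (1712 to 2081) CPM. It gave 21.0, 11.4, 21.3 and 19.1 UMIs per 100 marker UMIs, so knock-in without exercise was lowest on both scales, while the highest library was WT without exercise per class UMI and WT with exercise per marker UMI.

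**Figure D3:**
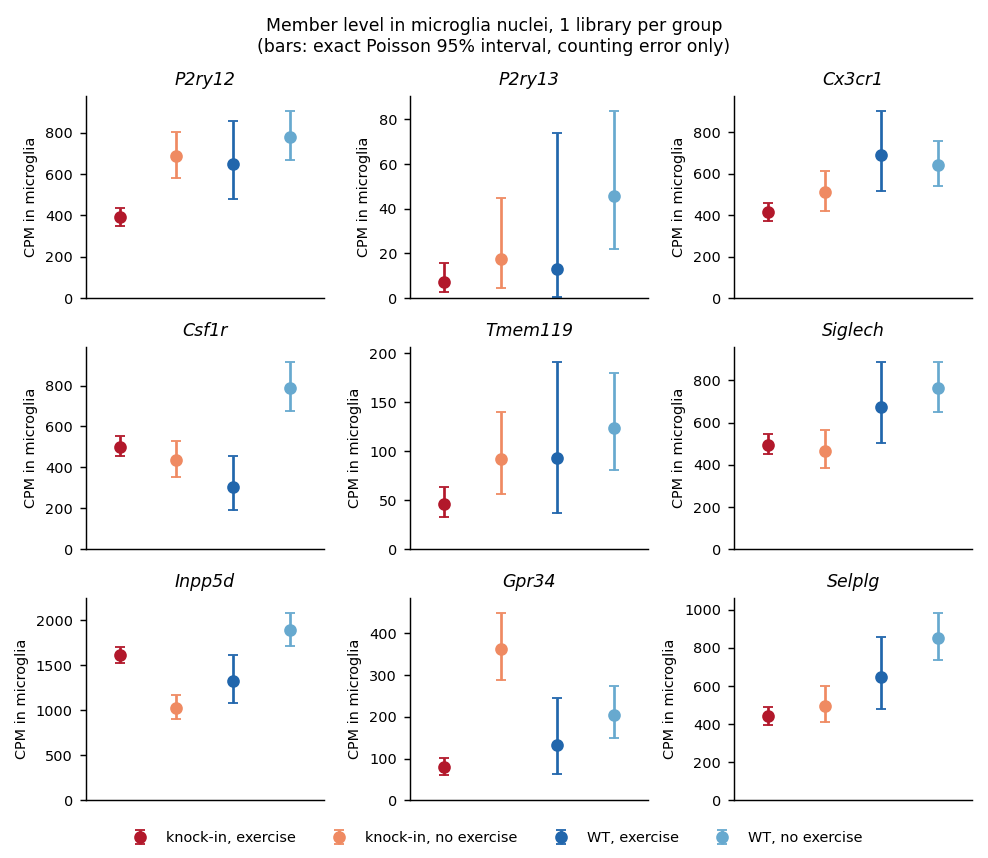
CPM of each of the 9 genes in microglia nuclei, 1 point per library with exact Poisson 95% intervals and each axis from 0. WT without exercise is the highest library for 7 of the 9 genes on this scale (for 2 of the 9, P2ry13 and Csf1r, per marker UMI). P2ry13, which is in both counts, has too few UMIs to rank. The share of all genes that are highest in that library was not counted. Gpr34 stands at 362 CPM in knock-in without exercise against 78.7 CPM in knock-in with exercise.

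The first comparison sets knock-in against WT microglia in mice without exercise. Of the 8 members with at least 20 UMIs over both libraries, 7 were lower in the knock-in, as were 54.5% of all genes measured, and Gpr34 was higher. Inpp5d had a log2 ratio of -0.88 (-1.12 to -0.65), Csf1r -0.86 (-1.23 to -0.49), Selplg -0.78 (-1.13 to -0.43) and Siglech -0.71 (-1.07 to -0.35). Cx3cr1, the fractalkine receptor, had -0.33 (-0.70 to 0.03) and P2ry12 -0.19 (-0.51 to 0.13), with intervals that include 0. Gpr34 had 0.82 (0.28 to 1.38). None of the 8 reached a log2 ratio of 1 in either direction, a size that 7.47% of the 5031 genes measured exceeded upwards and 6.58% downwards. The summed members had a log2 ratio of -0.57 (-0.70 to -0.45), and the median member -0.57, against a median of -0.06 for all genes measured. Per microglia marker UMI the summed ratio was -0.44 (-0.56 to -0.31), with the same 1 member higher and none past the fold (9.76% of genes upwards, 4.33% downwards). With the mixed nuclei kept the summed ratio per class UMI was 0.92, and per marker UMI it was -0.43.

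The comparison of genotypes with exercise asks the same in running mice, with only 27 WT microglia. Of 8 members, 6 were lower in the knock-in, as were 43.5% of all genes measured, and Csf1r and Inpp5d were higher. P2ry12 had a log2 ratio of -0.73 (-1.17 to -0.27), Cx3cr1 -0.74 (-1.16 to -0.29), Selplg -0.56 (-0.99 to -0.10) and Siglech -0.45 (-0.87 to 0.00). Csf1r had 0.72 (0.11 to 1.39), from 23 UMIs in WT, and Inpp5d had 0.28 (-0.01 to 0.59). No member reached a log2 ratio of 1 upwards, against 19.8% of 7486 genes, and none passed it downwards, where Tmem119 stood at -0.997 (-2.17 to 0.41), against 7.0% of genes. The summed ratio was -0.19 (-0.35 to -0.02), against a median of 0.13 for all genes. Per marker UMI, where 14.2% of genes were past the fold in each direction, it was -0.48 (-0.65 to -0.32), with 4 members past the fold downwards. These were P2ry12 (-1.03, -1.47 to -0.57), Cx3cr1 (-1.04, -1.46 to -0.59), Tmem119 (-1.30, -2.47 to 0.11) and Gpr34 (-1.05, -2.02 to 0.07). Tmem119 and Gpr34 rest on 7 and 10 WT UMIs, and their intervals include 0. With the mixed nuclei kept, the summed ratio was 3.36 per class UMI and -0.34 per marker UMI.

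The 2 genotype comparisons share no library, and their values for each gene can be set side by side. Selplg (-0.56 with exercise, -0.78 without) had intervals below 0 in both. Siglech (-0.45 with exercise, -0.71 without) and Cx3cr1 (-0.74 with exercise, -0.33 without) had ratios below 0 in both, with an interval that includes 0 for Siglech with exercise and for Cx3cr1 without. Csf1r had opposite signs per class UMI (0.72 with exercise, -0.86 without) and per marker UMI (0.42 with exercise, -0.72 without). Gpr34 had -0.75 with exercise, an interval that includes 0, and 0.82 without. Inpp5d had 0.28 with exercise, an interval that includes 0, and -0.88 without, and per marker UMI it had -0.018 with exercise and -0.74 without, so its opposite sign depends on the scale. Whether the genotype difference depends on exercise was not tested, since each group is 1 library.

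**Figure D4:**
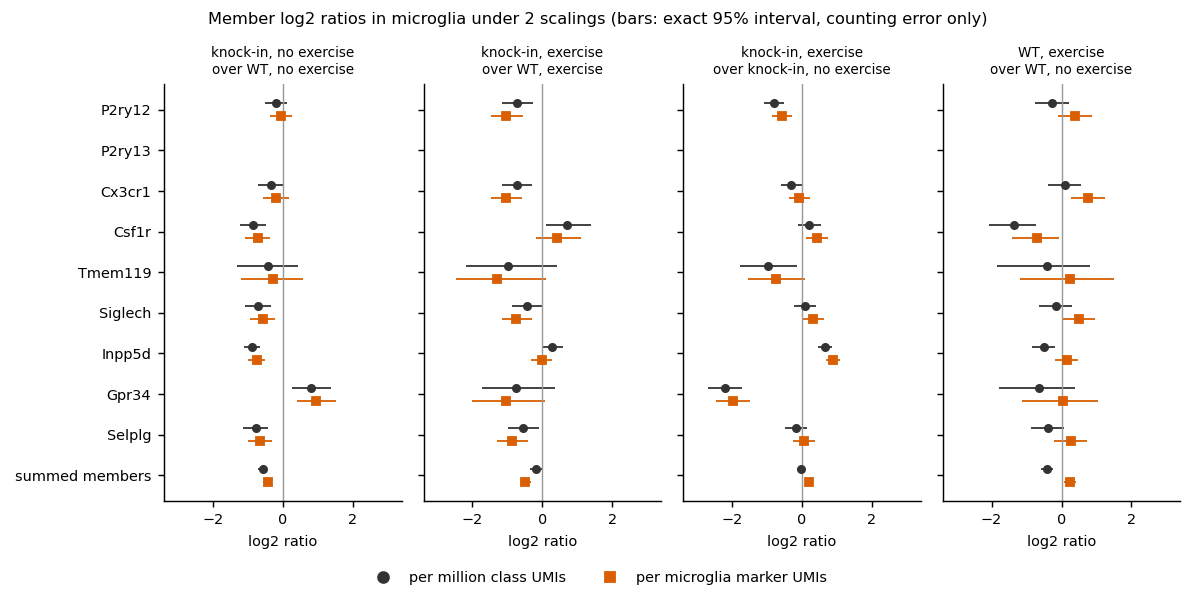
Log2 ratio of each gene and of their sum in microglia for the 4 comparisons, per 1000000 class UMIs (circles) and per microglia marker UMI (squares), with exact 95% intervals. In the comparison of genotypes without exercise both scales put 7 of 8 members below 0 and Gpr34 above it, and in that of exercise within WT the summed ratio is -0.43 on the first scale and 0.24 on the other.

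The comparison of running within the knock-in sets exercised against unexercised knock-in microglia. The summed members were nearly level, with a log2 ratio of -0.04 (-0.14 to 0.07), and single members went different ways. Gpr34 had -2.20 (-2.69 to -1.72), P2ry12 -0.81 (-1.09 to -0.53) and Tmem119 -0.98 (-1.78 to -0.14). Inpp5d had 0.65 (0.45 to 0.86), and Csf1r (0.20), Siglech (0.09), Selplg (-0.17) and Cx3cr1 (-0.30) had intervals that include 0. Gpr34 was the 1 member past a log2 ratio of 1 downwards, where 10.8% of 8310 genes lay, and none was past it upwards, where 13.9% lay. Per marker UMI, where 7.52% of genes were past the fold downwards and 19.8% upwards, Gpr34 stood at -1.98, Inpp5d at 0.88 (0.68 to 1.084) and the sum at 0.19 (0.08 to 0.29), against a median of 0.30 for all genes on that scale. Without Inpp5d the summed ratio was -0.37 per class UMI. The neuronal list stood at 33220 CPM in microglia of knock-in with exercise and 17098 CPM in knock-in without exercise, and its part in these values was not tested.

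Running within WT gave a direction that depended on the scale. The summed members had a log2 ratio of -0.43 (-0.60 to -0.25) per class UMI, with 7 of 8 members lower, and 0.24 (0.06 to 0.41) per marker UMI, with 7 of 8 higher. Of all genes measured, 59.2% were lower per class UMI and 75.6% were higher per marker UMI. A change of scale adds the same amount to the log2 ratio of every gene, so the turn is not particular to the members. Csf1r was lower on both, at -1.37 (-2.07 to -0.74) and -0.71 (-1.41 to -0.08). No member was past the fold per marker UMI, where 4.11% of genes lay downwards and 24% upwards. Csf1r was the 1 member past it per class UMI, where 13% of 3479 genes lay downwards and 6.29% upwards. Inpp5d had -0.51 (-0.84 to -0.19) per class UMI and 0.15 (-0.18 to 0.47) per marker UMI, so no direction is given for it. Thinned so that each nucleus weighs the same, the 27 microglia gave a summed ratio of 0.015.

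The median of all measured genes itself moved from class UMI to marker UMI by the same amount as the members, since a change of scale shifts every gene alike. It was -0.065 and 0.073 for genotype without exercise, 0.13 and -0.17 for genotype with exercise, 0.075 and 0.30 for running within the knock-in, and -0.15 and 0.51 for running within WT. Relative to that median, the summed members stood at -0.51 for genotype without exercise and at -0.32 with exercise. They stood at -0.11 for running within the knock-in and at -0.28 for running within WT. These differences are the same on either scale by construction. The genes measured differ between comparisons.

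The mix of members within microglia also differed between libraries, and shares of the summed member UMIs do not depend on either scale. Inpp5d took 40.4%, 25.1%, 29.2% and 31.0% in knock-in with exercise, knock-in without exercise, WT with exercise and WT without exercise. Gpr34 took 1.97%, 8.85%, 2.92% and 3.37%. P2ry12 took 9.81%, 16.7%, 14.3% and 12.8%, and Csf1r 12.6%, 10.7%, 6.73% and 12.96%. Cx3cr1, Siglech and Selplg each took 10.4% to 15.2% in every library. For Inpp5d, Gpr34 and P2ry12 the intervals of the 2 knock-in libraries did not overlap, and the WT values lay between them. Tmem119, at 1.17%, 2.24%, 2.05% and 2.02%, had the same order with overlapping intervals. The shares are parts of a whole, so a larger share of Inpp5d makes the others smaller, and they are not separate results. Between the 2 knock-in libraries, 10.8% of 8310 genes were past a log2 ratio of 1 downwards and 13.9% upwards per class UMI.

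Summed over all kept nuclei, the members were also measured with no use of clusters. Here the number of microglia, the RNA per microglia and member reads in other nuclei cannot be told apart. Neuronal classes held 34.5%, 65.2%, 59.5% and 61.6% of P2ry12 UMIs in knock-in with exercise, knock-in without exercise, WT with exercise and WT without exercise. Of the UMIs of the other 8 members they held 10.8%, 20.5%, 14.6% and 12.6%. Microglia made up 3.16% (2.80 to 3.54), 1.40% (1.17 to 1.66), 0.41% (0.27 to 0.60) and 1.19% (0.99 to 1.42) of kept nuclei. The shares of the 2 libraries without exercise overlap, and their order turns with the filter, since a minimum of 1200 UMIs left 83 microglia in the knock-in and 114 in WT, and the minimum of 1000 used here left 130 in the knock-in and 122 in WT. The summed members stood at 79.6, 59.7, 34.6 and 46.1 CPM in the same order. In the comparison of genotypes with exercise 7 of 9 members were past a log2 ratio of 1 upwards, where 7.04% of 19415 genes lay, led by Inpp5d (2.39, 2.22 to 2.57), Siglech (2.03) and Csf1r (2.02). Per marker UMI over the same nuclei none was past it upwards, where 0.335% of genes lay, and P2ry12 (-2.25) and Gpr34 (-1.08) were past it downwards, where 84.7% lay. Over all kept nuclei this scale is not one of microglial RNA alone. Microglia held 6430 of 11518 marker UMIs in knock-in with exercise and 2055 of 6032 in knock-in without exercise. Per UMI of all nuclei P2ry12 alone was lower (-0.53, -0.67 to -0.39), and none was past the fold downwards, where 8.01% lay. In running within the knock-in, 4 members were past it upwards, where 9.12% of genes lay, and P2ry12 (-1.38, -1.51 to -1.25) downwards, where 12.5% lay. In the comparison of genotypes without exercise Gpr34 was the 1 member past it (1.28, 0.94 to 1.64), where 6.96% of genes lay upwards and 2.07% downwards. In running within WT all 9 were lower, as were 63.1% of all genes, from -1.05 for Selplg to -0.034 for P2ry12 (6 of 9 lower per marker UMI), with 1 past the fold, where 1.19% of genes lay downwards and 3.61% upwards. Per marker UMI over the same nuclei, the summed ratio was -0.51 for genotype with exercise, -0.29 for running within the knock-in, -0.15 for genotype without exercise and 0.0747 for running within WT.

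Within each library, microglia were then split by whether they held any UMI of a core plaque-response list (Cst7, Lpl, Itgax, Clec7a, Csf1, Spp1, Gpnmb, Axl, Igf1, Myo1e, Ank and Lilrb4a), after thinning to 1000 UMIs. Nuclei are not replicates, so the values describe each library. In knock-in with exercise 151 of 276 microglia held such a UMI and in knock-in without exercise 49 of 130, against 8 of 27 in WT with exercise and 20 of 122 in WT without exercise. Granule neurons held one in 27.3%, 19.8%, 23.8% and 25.7%, so the WT shares are near or below that background. In knock-in with exercise the summed members stood at 3477 CPM in nuclei with the UMI and 5216 CPM in those without, a log2 ratio of -0.59 (-0.75 to -0.42). In knock-in without exercise they stood at 3429 and 6062 CPM, a log2 ratio of -0.82 (-1.08 to -0.57). In WT the ratios were -0.11 (-0.61 to 0.37) with exercise and 0.10 (-0.18 to 0.36) without. Knock-in microglia without the UMI thus stood at 5216 and 6062 CPM, and WT microglia without it at 6737 and 6451 CPM.

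The same split is given here by member. Selplg (-0.83, -1.34 to -0.33, with exercise and -1.74, -2.72 to -0.88, without) and P2ry12 (-1.09, -1.67 to -0.54, with exercise and -0.86, -1.56 to -0.20, without) were lower in plaque-response nuclei of both knock-in libraries. Csf1r had -0.48 (-0.96 to 0.00) with exercise and -1.50 (-2.53 to -0.58) without. Inpp5d had -0.35 (-0.62 to -0.08) with exercise and -0.49 (-0.97 to -0.01) without. Cx3cr1 had -0.74 (-1.29 to -0.21) with exercise and -0.66 (-1.46 to 0.085) without. Siglech had -0.74 (-1.24 to -0.26) with exercise and -0.67 (-1.45 to 0.06) without. Gpr34 had 0.53 (-0.82 to 1.99) with exercise and -0.07 (-0.97 to 0.79) without, intervals too wide to place it. The 18 microglia markers stood at -0.02 (-0.15 to 0.10) with exercise and -0.09 (-0.25 to 0.07) without in the same nuclei, and the neuronal list at -0.09 (-0.15 to -0.04) and 0.03 (-0.13 to 0.19). The class is a range cut at 1 UMI, since 51 of the 151 nuclei and 21 of the 49 held exactly 1.

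**Figure D5:**
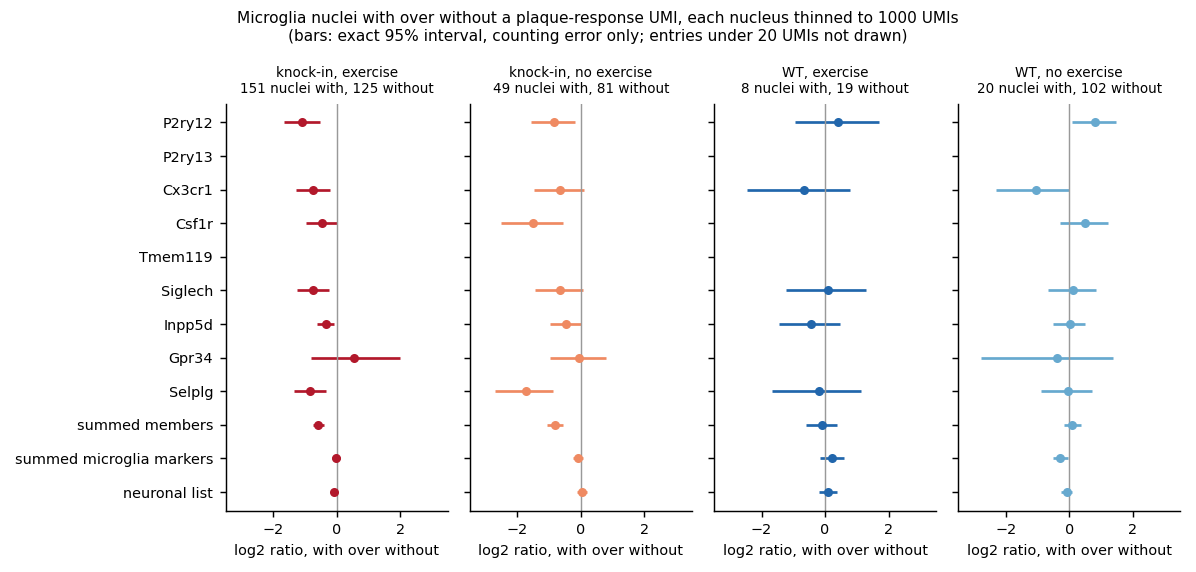
Log2 ratio of each gene between microglia with and without a UMI of the core plaque-response list within each library, each nucleus thinned to 1000 UMIs, with exact 95% intervals. The summed members lie at -0.59 and -0.82 in the 2 knock-in libraries while the microglia markers lie at -0.02 and -0.09, and in the WT libraries the sums lie at -0.11 and 0.10.

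Other genes of the same pathways were described in microglia per class UMI, by counts and medians beside the medians of all genes given above. Of 27 lysosome genes, 23 were measured in the comparison of genotypes without exercise, 15 of them higher, with a median log2 ratio of 0.06. Ctsz, a lysosomal protease, had 1.49 (0.58 to 2.48), and Scarb2, a lysosomal membrane protein, had -2.10 (-3.26 to -1.08). With exercise the genotype median was 0.093 over 24 genes and, per marker UMI, -0.21. Running within the knock-in gave -0.49 over 26, with Ctsl, a protease, at -2.79 (-3.70 to -1.93) and Tfeb, a regulator of lysosome genes, at 1.45 (0.40 to 2.71). Of the signalling partners of these receptors, 12 of 14 were lower in the knock-in without exercise, with a median of -0.71, and Syk, a kinase that acts with Tyrobp, had -1.02 (-1.93 to -0.16). With exercise the genotype median of the partners was 0.27, with 12 of 16 higher, and per marker UMI it was -0.024, with 7 higher. The identity regulators of microglia had medians of -0.54 without exercise, with Runx1 at -0.87 (-1.24 to -0.50), and 0.19 with exercise (-0.11 per marker UMI), with Runx1 at 0.84 (0.35 to 1.37).

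Other homeostatic genes of microglia had medians of -0.36 over 18 genes for genotype without exercise and -0.24 over 18 with exercise, with 3 and 6 genes higher. Within the knock-in, running gave -0.67 over 19 genes (-0.44 per marker UMI), and Cst3, a secreted protease inhibitor, had 231 CPM in knock-in with exercise and 2165 CPM in knock-in without exercise, a log2 ratio of -3.23 (-3.47 to -2.98). Running within WT, with only 27 microglia in WT with exercise, gave -0.85 over 18. Of these 7 were past the fold downwards, where 13% of all genes lay. Per marker UMI the median was -0.19, with none past the fold, where 4.11% of genes lay downwards and 24% upwards. Plaque-response genes, 25 listed, had a median of 1.37 for genotype without exercise, with 8 of 9 measured genes higher. With exercise the median was 2.38, with 15 of 16 higher. Running gave these genes a median of 0.32 in the knock-in, with 13 of 19 higher. Of all genes measured, 45.5%, 56.5% and 53.5% were higher in the same 3 comparisons. A gene was measured only if its UMIs over both libraries reached the minimum given above. Microglia held 838873 UMIs in knock-in with exercise, 229087 in knock-in without exercise and 75432 in WT with exercise. Listed genes low in the deeper library were thus more likely to be left out. In both genotype comparisons, a listed gene scarce in WT could reach the minimum only through the knock-in library. Without exercise only 9 of the 25 plaque-response genes reached it. The number of measured genes that were higher is thus partly set by the minimum and is no support for a difference. The part of this in the values of all 3 comparisons was not tested. Other purine receptors had medians of -0.48 and 0.52 for genotype without and with exercise, and P2ry6, a UDP receptor tied to phagocytosis, had -1.25 (-1.72 to -0.77) for running within the knock-in. The ligands and their enzymes had genotype medians of -0.12 without exercise (0.016 per marker UMI) and 0.17 with exercise (-0.12 per marker UMI), with Entpd1, an enzyme that breaks down ATP and ADP, at -0.26 (-0.62 to 0.10) without exercise and -0.24 (-0.72 to 0.27) with exercise.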

How the data were processed

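Nuclei of snap-frozen hippocampus were profiled by droplet capture with 10x reagents (3' v3.1), per the labels' protocols, with 1 library in each of 4 groups. The deposited matrices hold raw UMI counts for each gene in each barcode. Cell Ranger 5.0.1 stands in their headers and 3.1.0 in the submitters' processing notes, which also name mm10. The sources used here do not say how introns and strand were treated in counting.

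Kept nuclei had 500 or more genes, 1000 or more UMIs and less than 5% mitochondrial UMIs. A doublet score came from 2 simulated pairs per nucleus in each library, and 0.8% per 1000 nuclei were left out. Of the simulated pairs, 35.2% to 64.4% scored at or above the limit, so doublets remain. Counts were scaled to 10000 per nucleus, log-transformed and clustered (scanpy 1.11.5, leidenalg 0.10.2) on 2000 variable genes without the 9 members, 30 components and 15 neighbours at resolution 1.0. Of 35 clusters, those with enough markers of 1 class, none of them members, were named, and a name means that nuclei are like that type. Non-neuronal nuclei whose share of a 16-gene neuronal list reached 0.75 times the median of granule neurons of their library were set aside as mixed. In knock-in with exercise, knock-in without exercise, WT with exercise and WT without exercise, 30, 8, 3 and 2 kept microglia lay between 0.65 and 0.75 times that level.

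UMIs were summed per class and library and given per 1000000 UMIs (CPM). Intervals are exact at 95% (Poisson for sums, conditional binomial for ratios, Clopper-Pearson for shares), and cover counting error only. With 1 library per group no test was made and no p-value is given. The ratio script was tested on simulated data. Each library enters 1 comparison of genotype and 1 of running, so those comparisons share libraries. Alternatives changed the scaling (TMM of edgeR 4.0.16, median-of-ratios factors of DESeq2 1.42.0), filters, clustering, depth and members.

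The members and lists were chosen with earlier results of these data known. All 9 members are named. Other genes are the 10 closest by correlation, the ligands and host genes, and, of each list and comparison, genes among the 2 highest and 2 lowest with at least 50 UMIs over both libraries.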

Additional observations from a re-analysis of the deposited data

Results flagged for a closer look

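Per class UMI, or per UMI of all nuclei, running had ratios of opposite sign in the knock-in and in WT for 6 of the values above, with both counting intervals clear of 0. The share of all genes that meet this rule was not counted, so the number 6 cannot be weighed. The 6 are not separate results either, since the sum is made of the members. Each group was 1 library, so the difference between the genotypes was not tested. In microglia, Inpp5d had a log2 ratio of 0.65 for running in the knock-in and -0.51 for running in WT per class UMI, and per marker UMI it had 0.88 in the knock-in and 0.15 in WT.

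The other 5 values are over all kept nuclei, which hold the number of microglia, their RNA and member reads in other nuclei together. Inpp5d had 1.90 in the knock-in and -0.78 in WT. Siglech had 1.41 in the knock-in and -0.72 in WT. Selplg had 1.17 in the knock-in and -1.05 in WT, and Csf1r had 1.12 in the knock-in and -0.86 in WT. The summed members had 0.41 in the knock-in and -0.42 in WT. Per marker UMI over the same nuclei, the sum had -0.29 in the knock-in and 0.0747 in WT, so both directions turn. On that scale Inpp5d had 1.20 in the knock-in and -0.29 in WT, Siglech had 0.71 in the knock-in and -0.23 in WT, Selplg had 0.46 in the knock-in and -0.56 in WT, and Csf1r had 0.42 in the knock-in and -0.37 in WT. Microglia took 3.16% and 1.40% of kept nuclei in the knock-in with and without exercise, and 0.41% and 1.19% in WT with and without exercise.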

How the results depend on the processing

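Values are log2 ratios of the summed members in microglia unless stated, and the cause of each shift was not tested. For genotype without exercise (-0.57) the sum was -0.44 per marker UMI, -0.83 with at least 1000 genes per nucleus, -0.79 with 4000 variable genes, -0.36 thinned, -0.34 with a limit of 0.6 for mixed nuclei and -0.43 with mixed nuclei kept per marker UMI. For genotype with exercise (-0.19) the same settings gave -0.48, -0.41, -0.18, -0.63, -0.81 and -0.34, and it was -0.80 with at least 1200 UMIs, -0.70 with no doublets left out, -0.50 with members among the variable genes and -0.43 without Inpp5d. For running in the knock-in (-0.04) it was 0.19 per marker UMI, 0.28 with at least 1000 genes, 0.19 with 4000 variable genes, -0.25 thinned, -0.20 at the limit of 0.6, 0.17 with mixed nuclei kept per marker UMI and -0.37 without Inpp5d. For running in WT (-0.43) it was 0.24 per marker UMI, 0.20 with at least 1200 UMIs, 0.17 with no doublets left out, 0.015 thinned, 0.27 at the limit of 0.6, 0.0883 with mixed nuclei kept per marker UMI, -0.15 with at least 1000 genes and -0.0895 with members among the variable genes, so its sign is not settled. Inpp5d in that comparison was 0.15, 0.18, 0.0887 and 0.23 per marker UMI, with at least 1200 UMIs, with no doublets left out and at the limit of 0.6.

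With mixed nuclei kept per class UMI, the sums were 0.92 for genotype without exercise, 3.36 with exercise, 0.77 for running in the knock-in and -1.67 in WT. For genotype without exercise Csf1r was then 0.79, Siglech 0.80, Inpp5d 0.63 and Selplg 0.41. With exercise P2ry12 was 2.27, Cx3cr1 2.92, Selplg 3.23 and the median member 3.21, and Tmem119 was 0.0061 for running in the knock-in.

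Over all kept nuclei the sums for genotype without exercise, genotype with exercise, running in the knock-in and running in WT were -0.15, -0.51, -0.29 and 0.0747 per marker UMI, and 0.0546, 1.88, 1.15 and -0.68 without P2ry12. Per marker UMI, Cx3cr1 was -0.0829, -0.58 and -0.21 in the first 3, Tmem119 was -0.29 and Gpr34 -1.08 for genotype with exercise, and the median member was -0.29 for genotype with exercise and -0.21 for running in the knock-in. With at least 1200 UMIs the sums were 0.28 for genotype without exercise and 0.53 for running in the knock-in, and over all deposited barcodes the sum was 1.34 for genotype with exercise. Of 677 values of single members under these settings, 551 lay within the interval of the main value, 109 outside it with the same sign or from an interval that included 0, and 17 changed sign.

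No paired analysis was possible because each group has 1 library. Depth limits P2ry13 (21 microglial UMIs in all), Tmem119 and all values from the 27 microglia of WT with exercise, 22 with at least 1200 UMIs per nucleus.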

Other observations

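Border macrophages, the macrophages of the meninges and vessels, held the members at other proportions than microglia. Only 34 such nuclei were found (15, 11, 3 and 5 in knock-in with exercise, knock-in without exercise, WT with exercise and WT without exercise), so the libraries were pooled. Csf1r stood at 456 CPM in border macrophages and 526 CPM in microglia, a log2 ratio of -0.21 (-0.71 to 0.26). Tmem119 had 0 UMIs in border macrophages against 94 in microglia. Selplg was lower there (-2.69, -4.01 to -1.64), as were Siglech (-1.73, -2.61 to -0.98) and Cx3cr1 (-1.56, -2.44 to -0.80). P2ry13 had 6 UMIs in border macrophages, at 70.2 CPM, and 21 in microglia, at 15.4 CPM, a log2 ratio of 2.19 (0.59 to 3.54). The pooled microglia are weighted towards knock-in with exercise, where P2ry13 stood at 7.15 CPM, against 45.6 CPM in WT without exercise, and the 6 UMIs came from the 2 knock-in libraries, so no order is given.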
